A study of Rattus norvegicus with 180 samples.

Results

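The anterior stomach was compared with the glandular stomach of the same rats on 1-color miRNA arrays. The comparison used 6 of the 180 samples of an atlas of rat organs, namely 3 arrays of stomach_anterior and 3 of stomach_glandular, 1 of each from rats 4, 5 and 6, and samples were taken by their organ label and joined by the animal number. All animals were male Sprague-Dawley rats, 10 weeks of age, that were anesthetized with ether and had their vessels perfused with saline before the organs were taken. For each array, 0.1 µg of total RNA was labeled. The atlas describes scraping of the mucosa for intestinal organs and does not mark the stomach that way, so each stomach sample is read here as tissue that could hold epithelium, connective tissue and muscle. In such bulk tissue, fewer cells of a type and less RNA per cell cannot be told apart.

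In rodents, the anterior stomach, or forestomach, is a storage chamber lined by keratinized stratified squamous epithelium, like the esophagus, and has no glands. The glandular stomach is lined by columnar mucous cells whose pits open into glands with parietal, chief and endocrine cells. Both have a smooth muscle wall. miRNAs are short RNAs that repress transcripts which pair with them, mainly through the seed, bases 2 to 8 of the mature strand. Many are made mostly by 1 class of cells, and serve as markers of those cells.

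The mature sequences below belong to the miRNAs on which the comparison turned, and they are shown so that related strands can be told apart. They were taken from RefSeq (rat build GRCr8), and capitals mark the seed. Glandular and absorptive epithelia are known for miR-192 and miR-215, which share the seed UGACCUA and differ by 4 edits over their whole length, for miR-194, which has a copy beside each of them, and for miR-375.
miR-192-5p: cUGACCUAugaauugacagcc
miR-215: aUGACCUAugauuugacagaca
miR-194-5p: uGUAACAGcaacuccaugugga
miR-375-3p: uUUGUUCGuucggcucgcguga
The strand of miR-192 lies at chr1:212994232-212994252 (+ strand), 194 bp from that of Mir194-2, and the strand of miR-215 at chr13:99383003-99383024 (+ strand), 273 bp from that of Mir194-1 and within the Iars2 gene. miR-375 lies at chr9:83906591-83906612 (- strand).

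Epithelia of all kinds make the miR-200 family, which holds cells in the epithelial state by repressing Zeb1 and Zeb2. Its members miR-141 and miR-200c have different seeds and lie 429 bp apart on chromosome 4. miR-205 marks basal squamous cells and lies at chr13:107564588-107564610 (- strand).
miR-141-3p: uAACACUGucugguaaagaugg
miR-200c-3p: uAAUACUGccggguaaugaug
miR-205: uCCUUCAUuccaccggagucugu
Smooth muscle makes miR-143 and miR-145 from 1 transcript, the long noncoding RNA Carmn, in which their strands lie 1340 bp apart at chr18:57371373-57371394 and chr18:57370033-57370055 (- strand). miR-133b and miR-1 are the miRNAs of striated muscle, which smooth muscle also makes at a lower level.
miR-143-3p: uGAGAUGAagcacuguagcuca
miR-145-5p: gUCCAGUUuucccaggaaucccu
miR-133b-3p: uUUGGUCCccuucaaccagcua
miR-1-3p: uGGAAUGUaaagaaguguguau
The last set holds miRNAs of the HOX gene clusters, which follow position along the body axis, and 2 sequence relatives. miR-10a-5p and miR-100-5p differ by 3 edits and miR-10a-5p and miR-10b-5p by 4, and none of these strands share a seed as listed. The listed miR-10b-5p strand begins inside the seed of miR-10a-5p, so their marked seeds are offset along a shared stretch. Part of their 4 edits lies at the ends.
miR-10a-5p: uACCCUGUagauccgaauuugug
miR-10b-5p: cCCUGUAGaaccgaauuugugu
miR-100-5p: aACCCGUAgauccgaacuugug
miR-125b-5p: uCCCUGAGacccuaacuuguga

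Values below are scaled signals, that is the scanner's processed intensity of a miRNA multiplied by 1 factor per array. Detection on an array required that over 50% of the miRNA's spots there stood well above background by the scanner's flag, and signals under 10.8 were set to that floor before the logarithm. Of the 717 miRNAs of the design, 214 gave a detection somewhere among the 6 arrays, and 172 were tested because all 3 arrays of at least 1 stomach part detected them. The anterior arrays detected from 148 to 181 miRNAs and the glandular arrays at least 156 each. Before scaling, the 75th percentile over 37 miRNAs detected on all 180 arrays was 2249.6, 3522 and 3473 on the anterior arrays (rats 4, 5 and 6, the order used throughout) and 1699.7, 1218 and 1131 on the glandular arrays, so the glandular arrays were dimmer in every animal. Across the 172 miRNAs, arrays of 1 part correlated at 0.975 or above and arrays of different parts at 0.601 to 0.694.

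With limma, paired by rat, 141 of the 172 miRNAs (82.0%) differed at an adjusted p under 0.05. Of these, 46 (26.7% of those tested) were higher in the anterior stomach and 95 (55.2%) were higher in the glandular stomach, and all 141 had 1 sign in the 3 rats. The 3 anterior signals did not overlap the 3 glandular signals for 144 miRNAs (83.7%). For a single miRNA, an exact permutation test of 3 arrays against 3 cannot give a p below 0.1.

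The split between the directions depended on the scaling. The median difference, anterior minus glandular, over the 172 miRNAs was -0.66 on the log2 scale. It was 0.11 with the 75th percentile taken over all miRNAs of the design (69 higher in anterior and 65 in glandular), 0.13 over miRNAs detected on all 6 arrays (73 and 64), -0.21 with the median of those miRNAs (56 and 74), 0.00 after quantile normalization (64 and 62) and 0.27 in the authors' normalized table (76 and 52). Under all of these scalings, 97 miRNAs (56.4%) differed in 1 direction, which were all 46 that were higher in the anterior stomach and 51 of the 95 that were higher in the glandular stomach. A further 20 of the 141 changed sign under at least 1 scaling, each with a difference of 0.94 log2 units or less. Unless stated otherwise, the miRNAs described below as higher are among the 97.

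**Figure D1:**
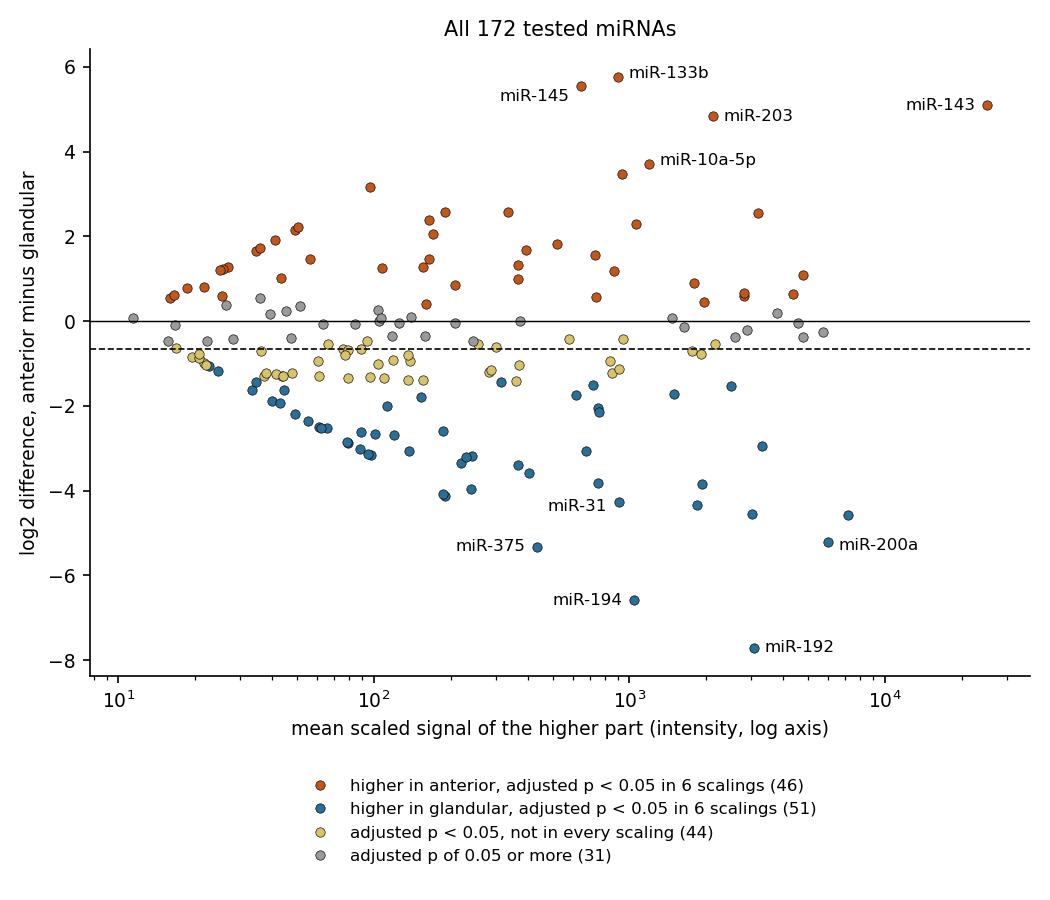
Difference between the stomach parts for each of the 172 tested miRNAs (y axis, log2, anterior minus glandular, mean of 3 rats) against the mean scaled signal of the part where it was higher (x axis, log scale). Orange and blue points are the 46 and 51 miRNAs that differed under all scalings, yellow points 44 that differed only under some and gray points 31 that did not pass the test. The dashed line is the median difference of -0.66. miR-192 lies lowest and miR-133b highest.

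The miRNAs of glandular and absorptive epithelium were far higher in the glandular stomach. miR-192 had signals of 12.8, 15.3 and 16.3 in the anterior stomach, detected on 2 of 3 arrays, and of 2256, 3159 and 4047 in the glandular stomach. Its difference of -7.70 ± 0.17 (SE, n = 3 rats) on the log2 scale was the largest of all 172, a 208-fold higher signal in the glandular stomach (limma adjusted p = 6.19e-08). miR-194, made from the same transcript, had 4.67, 7.47 and 10.6 in the anterior stomach, where 1 array detected it and all values lay under the floor, and 756, 1116 and 1337 in the glandular stomach, a difference of -6.59 ± 0.20 (SE, adjusted p = 1.96e-07). With all anterior values raised to the floor, its size was set by the floor, and it was -4.59 with a floor 4 times as high and -7.18 with one 4 times as low. Beside 55.2% of all tested miRNAs, the 3 tested members of this list were all higher in the glandular stomach. Their median of -6.59, beside -0.66 over all tested miRNAs, was this value of miR-194 and rests on the floor in the same way.

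miR-375, which the endocrine cells of the pancreas, pituitary gland and gut also make, was detected on none of the anterior arrays. Its signals there were -1.01, -1.51 and -0.795, at background, and in the glandular stomach 514, 544 and 294. The glandular signal was at least 68.0-fold higher (measured means -1.11 and 451, adjusted p = 5.62e-07), where the bound sets each anterior array at the lowest signal it detected for any miRNA. miR-7a, another miRNA of endocrine cells, rose with it, from 13.3, 14.7 and 18.5 (2 of 3 arrays) to 242, 277 and 204, a difference of -3.96 ± 0.20 (SE, adjusted p = 1.57e-06). Both tested endocrine miRNAs were thus higher in the glandular stomach, beside 55.2% of all tested miRNAs. The other 3 of the 5 listed were detected on none of the arrays, and miR-375 also counts in the list of gland epithelium.

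miR-215 behaved unlike its seed relative. It had 13.6, 5.83 and 4.14 in the glandular stomach, detected on 1 of 3 arrays, and was not tested. The probe set marked v15.0 had 28.9, 14.8 and 8.03, detected on 2 arrays. Duodenum of the same rats had signals of 44298, 27844 and 18079 for miR-215, so its probes gave strong signals elsewhere. The duodenal signal exceeded the glandular signal 8.14-fold for miR-192, 23.2-fold for miR-194 and 2407-fold for miR-215, the last with 2 of the 3 glandular values raised to the floor. In the glandular stomach, a signal at miR-192 of 3154 ± 895 (SD, n = 3) was thus found beside a signal at miR-215 of 7.87 ± 5.06 (SD, n = 3), and the miR-215 locus carries a copy of miR-194 as well.

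**Figure D2:**
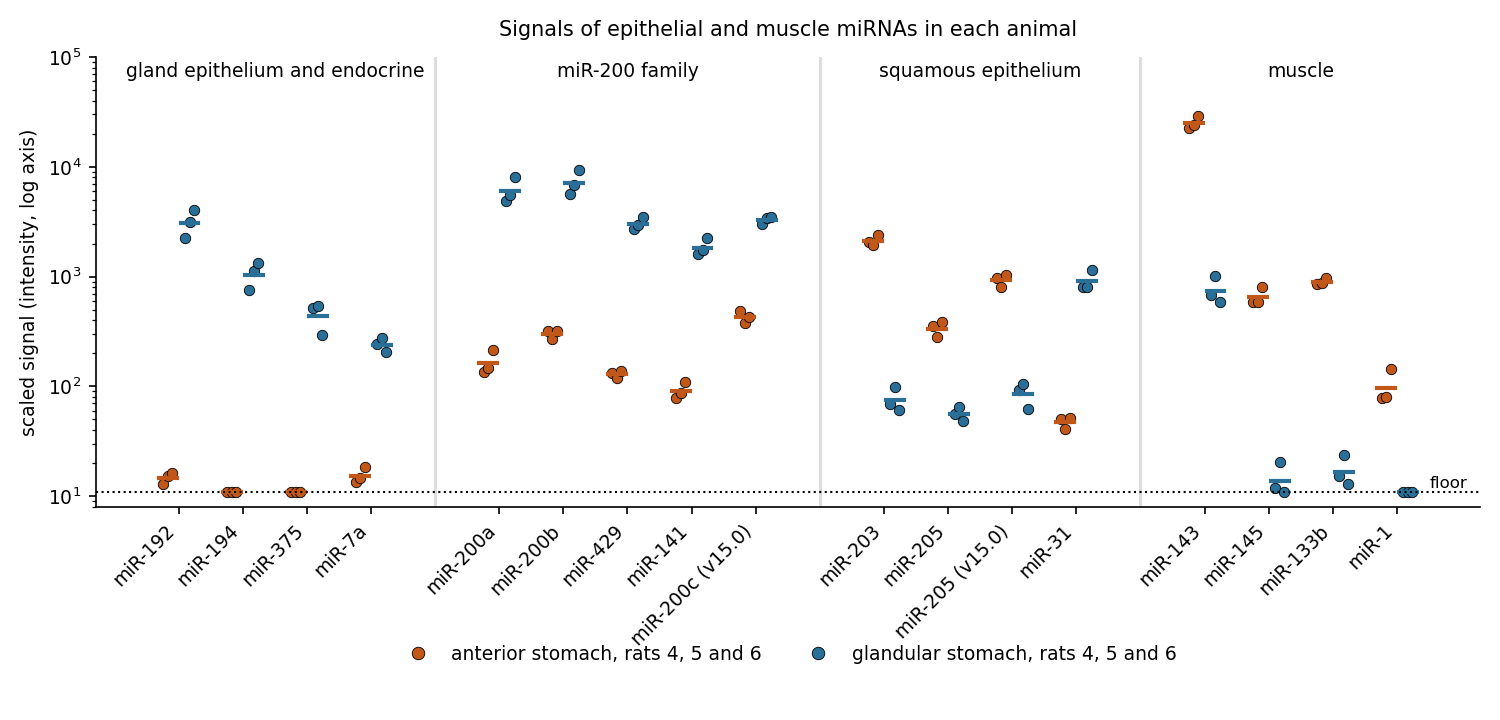
Scaled signals (y axis, log scale) of epithelial and muscle miRNAs in the anterior (orange) and glandular (blue) stomach, points from left to right for rats 4, 5 and 6, with bars at the mean of the log2 values. Signals under the floor of 10.8 (dotted line) are drawn on it. For every miRNA shown the 2 groups of 3 points are apart, and miR-31 lies on the other side from miR-203 and miR-205.

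The miR-200 family was higher in the glandular stomach for all 7 entries tested (median -4.34), beside 55.2% of all tested miRNAs. The entries include both probe sets of miR-200c and the strand miR-200b*. miR-200a had 135, 148 and 215 in the anterior stomach and 4843, 5528 and 8032 in the glandular stomach, a difference of -5.20 ± 0.16 (SE, adjusted p = 1.96e-07). For miR-200b, miR-429 and miR-141, which are made with miR-200a or from the other cluster of the family, the differences were -4.57, -4.56 and -4.34. Among those detected on all 6 arrays, miR-200c had the smallest, at -3.35, or -2.94 by the probe set marked v15.0. That probe set had signals of 491, 376 and 431 against 3007, 3405 and 3524. miR-200b*, with all anterior values raised to the floor, was at -3.02, and at -1.02 with a floor 4 times as high. All these miRNAs except miR-200b* were detected on all 6 arrays, so the anterior stomach carried the family at a lower level rather than not at all. The linked cluster of miR-183 and miR-96, which sensory cells and epithelia make, went the same way, with -2.60 and -3.07. The remaining member miR-182 was detected on 1 glandular array only and was not tested.

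Squamous miRNAs were split. miR-203, which drives keratinocytes out of the cell cycle into differentiation, had 2081, 1929.9 and 2404 in the anterior stomach and 69.4, 99.0 and 60.3 in the glandular stomach. The difference was 4.84 ± 0.22 (SE, adjusted p = 9.17e-07), a 28.6-fold higher anterior signal. miR-205 had 352, 281 and 382 against 56.1, 64.1 and 48.5, a difference of 2.59 ± 0.20 (SE, adjusted p = 1.3e-05), and by the probe set marked v15.0 it had 965, 807 and 1038 against 93.5, 104 and 62.1, a difference of 3.46 ± 0.23. All 6 arrays detected miR-203 and miR-205, the glandular arrays included.

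miR-31, listed with the squamous miRNAs because keratinocytes make it, was higher in the glandular stomach. Its signals were 50.3, 41.0 and 51.7 in the anterior stomach and 804, 808 and 1159 in the glandular stomach, a difference of -4.26 ± 0.17 (SE, adjusted p = 5.62e-07). The opposite strand of the hairpin, miR-31*, measured by probes of its own, was detected on 2 of 3 anterior arrays with all anterior values under the floor, and its difference of -4.13, set by the floor, was -2.13 with a floor 4 times as high. Of the 5 tested entries of the squamous list, 3 were therefore higher in the anterior stomach and 2 in the glandular stomach. The 3 are miR-203 and both probe sets of miR-205, and the 2 are both strands of the miR-31 hairpin, so the entries are not separate miRNAs. Over all tested miRNAs these shares were 26.7% and 55.2%. Across the 55 organs miR-31 was highest in duodenum, at 1069 ± 339 (SD, n = 3), and the glandular stomach came next, at 924 ± 204, within that spread.

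Muscle miRNAs were higher in the anterior stomach. miR-143 had 22758, 23858 and 29022 in the anterior stomach and 674, 1015 and 582 in the glandular stomach, a difference of 5.09 ± 0.23 (SE, adjusted p = 8.13e-07). Its transcript partner miR-145 had 582, 587 and 797 against 11.9, 20.3 and 9.69, detected on 1 glandular array, a difference of 5.56 ± 0.26 (adjusted p = 9.22e-07). The intestinal organs described as scraped mucosa had miR-143 means of 1504 (duodenum), 2713 (jejunum), 4528 (ileum), 3846 (cecum) and 2473 (colon). These means exceeded all 3 glandular stomach signals, although duodenum arrays went down to 618. Rectum, at 236, lay below the glandular signals. The miR-145 means stood likewise. How much muscle each stomach sample held was not tested, so the differences need not be those of complete stomach walls. All 4 tested members of the smooth muscle list were higher in the anterior stomach, beside 26.7% of all tested miRNAs. The median of the 4 was 3.17, or 3.00 with bounds for those not detected in the glandular stomach. The other 2, miR-490 and miR-490*, had anterior means of 25.7 and 25.0, were detected on no glandular array, and were at least 1.87-fold and 1.82-fold higher. These 2 dim miRNAs turned to the other direction, -0.76 and -0.81, under normexp, which models background and signal of the spots instead of taking the scanner's subtraction.

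Of the striated muscle list, miR-133b had 860.4, 866 and 974 in the anterior stomach against 15.1, 23.6 and 12.9, detected on 1 glandular array. Its difference of 5.76 ± 0.22 (SE, adjusted p = 5.34e-07) was the largest in favor of the anterior stomach. miR-1 had 78.4, 79.9 and 144 and was detected on no glandular array, so its anterior signal was at least 7.06-fold higher (measured means 101 and 2.14, adjusted p = 6.42e-06). miR-206 and miR-208, which are particular to skeletal and to heart muscle, were detected on none of the 6 arrays. Nor was miR-133a, and 8 of the 12 listed miRNAs gave no detection at all. In esophagus, which has a striated muscle wall in the rat, miR-133b ranged from 7441 to 20475, above every anterior stomach array.

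The glandular array of rat 5 stood somewhat apart from the other glandular arrays in several miRNAs that were higher in the anterior stomach. It was the highest of the 3 for miR-143, miR-145, miR-133b, miR-10a-5p, miR-199a-3p and miR-126. The same held for the squamous miRNAs miR-203 and miR-205, and for miR-365 and miR-34a. Every anterior signal of these miRNAs still exceeded it. Without rat 5, 45 miRNAs were higher in the anterior and 86 in the glandular stomach.

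**Figure D3:**
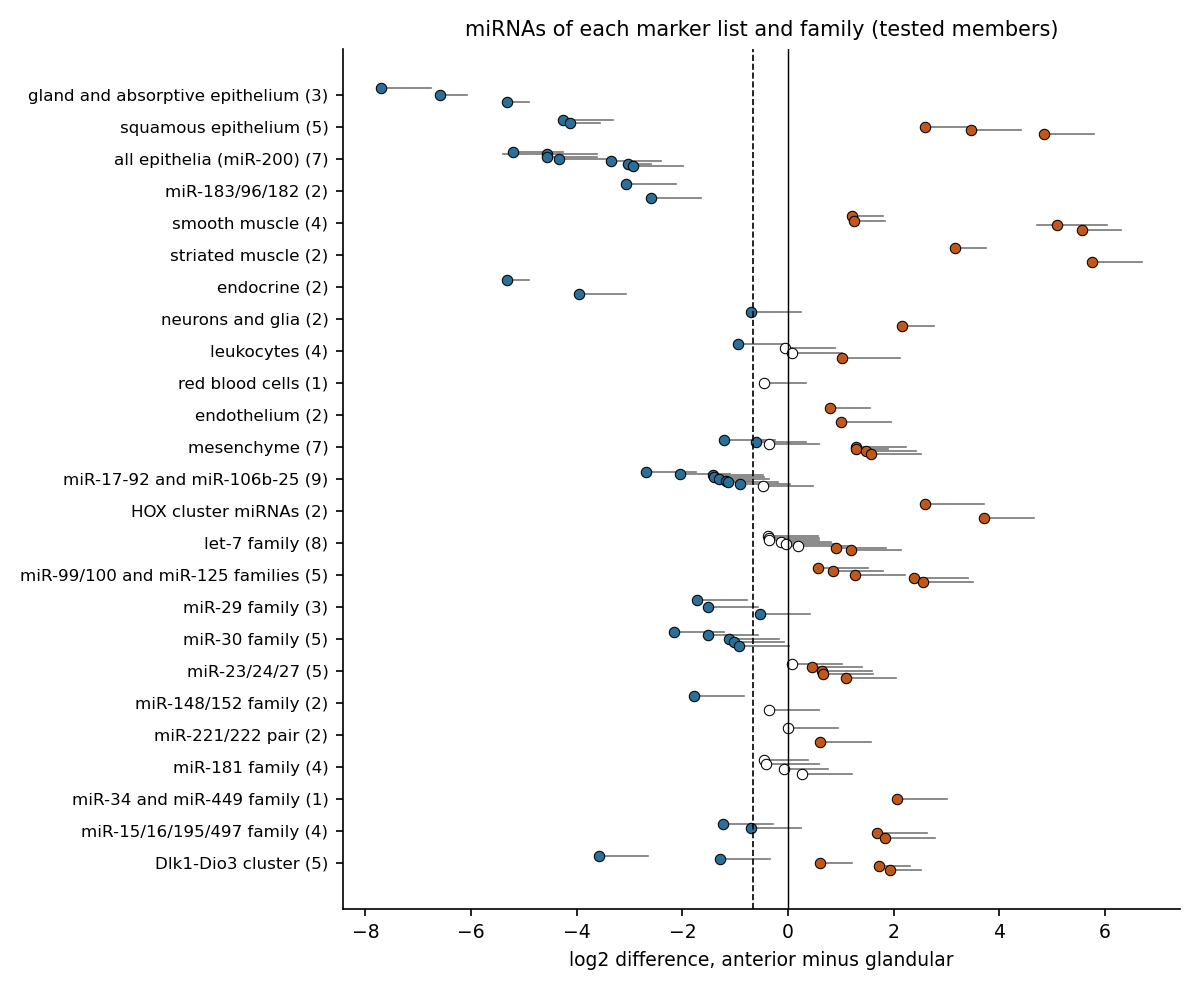
Differences between the stomach parts (x axis, log2, anterior minus glandular) for the tested members of each marker list and family, their number in parentheses. Filled points passed the test in the main scaling (orange higher in anterior, blue higher in glandular), open points did not, gray lines span the main and 5 other scalings and the dashed line is the median of all 172. Lines that cross 0 mark miRNAs whose direction depended on the scaling, such as most of the let-7 family.

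Connective tissue miRNAs were called in both directions, and vessel miRNAs were higher in the anterior stomach. miR-199a-3p, made by fibroblasts and other mesenchymal cells, had 626, 755 and 826 in the anterior stomach against 193, 356 and 218, a difference of 1.57 ± 0.20 (SE, adjusted p = 0.000212). Its partners miR-199a-5p and miR-214 differed by 1.47 and 1.29, and 4 of the 7 tested mesenchymal miRNAs were higher in the anterior stomach (median 1.29, or 0.97 with the bound for miR-455*, itself at -0.88 under normexp), beside 26.7% of all tested miRNAs. The other strands called were those of the cartilage-rich miR-140, higher in the glandular stomach though not under every scaling. miR-140* differed by -1.20, and miR-140 by -0.60, with the other sign under 4 of the 5 other scalings. miR-152, at -0.36, did not pass. Both endothelial strands, miR-126 and miR-126*, were higher in the anterior stomach, miR-126 by 1.00 ± 0.22 with signals of 363, 356 and 376 against 159.8, 263 and 144. miR-126* was detected on no glandular array and was at least 1.58-fold higher, with the other direction (-1.01) under normexp.

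Of the 4 tested leukocyte miRNAs, 1 was called in each direction and 2 did not pass, beside 82.0% of all tested miRNAs called. miR-223 of myeloid cells had 106, 93.8 and 120.5 against 78.7, 148 and 88.5, a difference of 0.07 ± 0.25 (SE), and the groups overlapped. miR-142-3p, made across the blood cell lineages, differed by -0.94, but under none of the other scalings, and miR-150 of lymphocytes was 1.02 higher in the anterior stomach but -0.70 under normexp. miR-451 of red blood cells ranged from 4.09 to 36.0 in the anterior stomach, around the glandular values of 19.8, 22.6 and 24.6, a difference of -0.46 ± 0.38 that did not pass the test, in animals whose vessels had been rinsed. The summed signal of the 5 leukocyte miRNAs on the array ranged from 327 to 415 in the anterior and from 308 to 574 in the glandular stomach. Of the 11 miRNAs of neurons and glia, 8 were detected on none of the arrays, among them miR-124 and miR-9. The 2 tested, miR-338 and miR-128, were called higher in the anterior and in the glandular stomach. miR-338 turned to -0.45 under normexp, and miR-128 to 0.25 in the authors' table. The 2 of liver and the 4 of the pancreatic acinus were detected on none either.

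The HOX cluster miRNAs were higher in the anterior stomach. miR-10a-5p had 1121, 1255 and 1208 against 79.2, 139 and 70.2, a difference of 3.70 ± 0.21 (SE, adjusted p = 2.37e-06). miR-10b had 203, 178 and 189.9 against 31.3, 42.8 and 23.8, detected on no glandular array, a difference of 2.58 ± 0.21 (SE, adjusted p = 1.68e-05). Its glandular signals, although not well above background, exceeded the lowest detected signal of their arrays, so the difference is between measured log2 means and no separate bound is given. The same held for miR-100 below. miR-196a, miR-196b and miR-196c, from the posterior HOX genes, were not detected. Beside 26.7% of all tested miRNAs, all 5 members of the families of miR-99, miR-100 and miR-125 were also higher in the anterior stomach (median 1.26). Among them miR-125b-5p had 3015, 3355 and 3219 against 592, 706 and 390.0, a difference of 2.55 ± 0.20, miR-100, detected on no glandular array, differed by 2.38 ± 0.17, and miR-99a was the smallest, at 0.56 ± 0.18. The difference of miR-99b, 1.26, became -0.077 under normexp.

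Detection itself separated the parts for some miRNAs. In all, 15 miRNAs that passed the test were detected on all anterior and no glandular arrays and 13 on all glandular and no anterior arrays. Besides those already given, miR-338, miR-3588 and miR-218 had anterior means of 49.2, 51.2 and 35.3 and were at least 3.58-fold, 3.69-fold and 2.51-fold higher there. On the glandular side, miR-200b*, miR-130b and miR-423* had means of 89.3, 40.4 and 43.4 and were at least 13.8-fold, 6.23-fold and 4.11-fold higher. Among the 97 miRNAs, 76 kept their call and direction under normexp, 25 of them higher in the anterior stomach, and 17 took the other sign, all of them higher in the anterior stomach otherwise and with anterior means of 161 or less. miR-338, miR-3588 and miR-218 were among these, at -0.45, -0.39 and -0.61.

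Growth-related clusters went the other way. In the clusters miR-17-92 and miR-106b-25, which proliferating cells make, 8 of 9 members were higher in the glandular stomach (median -1.31), of which 4 under every scaling. miR-19a had 13.1, 18.9 and 26.2 against 96.9, 115 and 155, a difference of -2.68 ± 0.16 (SE, adjusted p = 3.22e-06), and miR-19b differed by -2.05. miR-92a, at -0.47 ± 0.21, did not pass. All 3 members of the miR-29 family, repressors of collagen transcripts, and all 5 of the miR-30 family were higher in the glandular stomach in the main scaling, and miR-29b, miR-29c, miR-30b-5p and miR-30e did so under every scaling, with differences of -1.52, -1.73, -1.52 and -2.15. These shares stand beside 55.2% of all tested miRNAs in that direction.

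miR-378, whose hairpin lies in the gene of the mitochondrial regulator Ppargc1b, had 138, 112 and 156 in the anterior and 2144, 1899 and 1753 in the glandular stomach, a difference of -3.85 ± 0.18 (SE, adjusted p = 1e-06). Its other strand miR-378* differed by -3.20. Across organs, miR-378 was highest in brown adipose tissue, followed by femoral muscle and the glandular stomach, at 1932 ± 197 (SD, n = 3). miR-33, which lies in the sterol regulator gene Srebf2, and miR-3559-5p were detected on all glandular and no anterior arrays and were at least 7.14-fold and 14.8-fold higher. In the anterior direction, miR-365 had 927, 933 and 1395 against 203, 261 and 197, a difference of 2.29 ± 0.22, and miR-34a, which p53 induces, had 163, 158 and 190.0 against 45.0, 58.0 and 26.0, a difference of 2.05 ± 0.27.

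Seed groups were compared next, without a test against the shares over all tested miRNAs. Those shares were 82.0% called, 26.7% higher in the anterior and 55.2% higher in the glandular stomach. Of the 172 tested miRNAs, 124 were matched to a RefSeq mature sequence, and 19 seeds had 2 or more members. In 8 of these all tested members were called in 1 direction, in 8 some members were called in 1 direction and others did not pass, and in 2 none was called. In the remaining one, AGCAGCA, miRNAs differed in both directions. miR-195 and miR-497, which are made from 1 transcript, were higher in the anterior stomach by 1.83 ± 0.20 and 1.67 ± 0.21. miR-15b and miR-16 differed by -1.23 and -0.70, the former in the same direction under all other scalings but past the test under 3 of 5, and the latter with the other sign under 3 of the 5 other scalings, and miR-322 did not pass at 0.17. Among the 8 members of the let-7 seed, 6 did not pass the test, and let-7e and let-7i were higher in the anterior stomach, by 1.19 and 0.90. let-7a had 4412, 4491 and 4510.5 against 4358, 5158 and 4283, and miR-21 had 4245, 4358 and 5922 against 4529, 5576 and 7348, differences of -0.04 and -0.25 that turned to 0.91 and 0.69 in the authors' table.

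The miRNAs listed for the imprinted Dlk1-Dio3 cluster were mostly dim in the stomach, with 5 of the 34 listed tested. The list does not claim to hold the whole cluster. miR-127, miR-434 and miR-329 were detected on all anterior and no glandular arrays and were at least 3.00-fold, 2.61-fold and 1.21-fold higher there. Under normexp they turned to -0.52, -0.60 and -1.02. The other 2 tested members, miR-494 and miR-409-3p, were higher in the glandular stomach, with differences of -3.57 ± 0.22 and -1.28. Under every scaling 4 of the 5 were called. Over all tested miRNAs, 26.7% were higher in the anterior and 55.2% in the glandular stomach.

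miR-494 belonged to a set that stood out for its profile across organs, and this set was chosen after its values were seen. The set holds 29 of the 172 tested miRNAs, with those of the acinar list left out. Each had its highest mean signal among the 55 organs in pancreas and was detected on every pancreas array. Not counted were miRNAs with that peak but without that detection, such as miR-490*, higher in the anterior stomach, and miR-200b*, higher in the glandular stomach. Of the 29, 27 were higher in the glandular stomach, beside 55.2% of all tested miRNAs, and none in the anterior stomach, beside 26.7%. Their median difference was -1.74, beside -0.66 over all tested miRNAs. These counts are calls in the main scaling. Under every scaling 17 were called, and 4 of the 27 (miR-320, miR-30a, miR-345-5p and miR-324-3p) changed sign under at least 1. Examples besides miR-375 are miR-494 by the probe set marked v15.0 (44.5, 53.7 and 63.0 against 892, 891 and 544), miR-188 (7.76, 5.99 and 9.51 against 119, 72.6 and 106), miR-466b-1* (17.2, 14.9 and 17.5 against 132, 129 and 153) and miR-483* (9.91, 5.27 and 11.6 against 328, 59.1 and 336). The acinar miRNAs miR-216a, miR-216b-5p and miR-217 were detected on none of the stomach arrays. The pancreas arrays had the lowest 75th percentile before scaling of all organs, 68.0 to 121, and the glandular stomach ranked 17th from the lowest of the 55 organs and the anterior stomach 47th. The part of array brightness in these differences was not tested. Without the 29 miRNAs, 114 of 143 differed, 68 of them higher in the glandular stomach.

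Both stomach parts were placed among the 55 organs by the means of their 3 rats over the 425 miRNAs detected in at least 1 perfused organ array. The anterior stomach correlated most with urinary bladder (r = 0.973), then skin (0.931) and thyroid (0.928), with esophagus sixth (0.916) and the glandular stomach 25th (0.818). The glandular stomach correlated most with colon (0.913), jejunum (0.907) and duodenum (0.902). These correlations are descriptions across miRNAs of the same arrays and carry no test. The means were taken after flooring, and 214 of the 425 miRNAs were detected on a stomach array, so values at the floor enter every r. They are not comparable with the array correlations over the 172 tested miRNAs.

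miR-143 was higher in the anterior stomach, at 25213 ± 3345 (SD, n = 3), than in any other organ by its mean, though bladder, at 23774 ± 3073, lay within the spread. The glandular stomach ranked 44th. For miR-145, bladder was first, with signals from 468 to 882, and the anterior stomach next at 655 ± 122, again within the spread. Esophagus had the highest miR-203, at 4888 ± 2961, followed by the anterior stomach at 2138 ± 242, and the rats of the esophagus ranged from 2012 to 7927, so that these neighbors overlapped. The v15.0 probe set of miR-205 placed the anterior stomach, at 937 ± 118, after esophagus, skin, eyeball and tongue. For miR-192, the glandular stomach was eighth and behind duodenum, jejunum, ileum, rectum, colon and cecum among the organs of the gut.

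**Figure D4:**
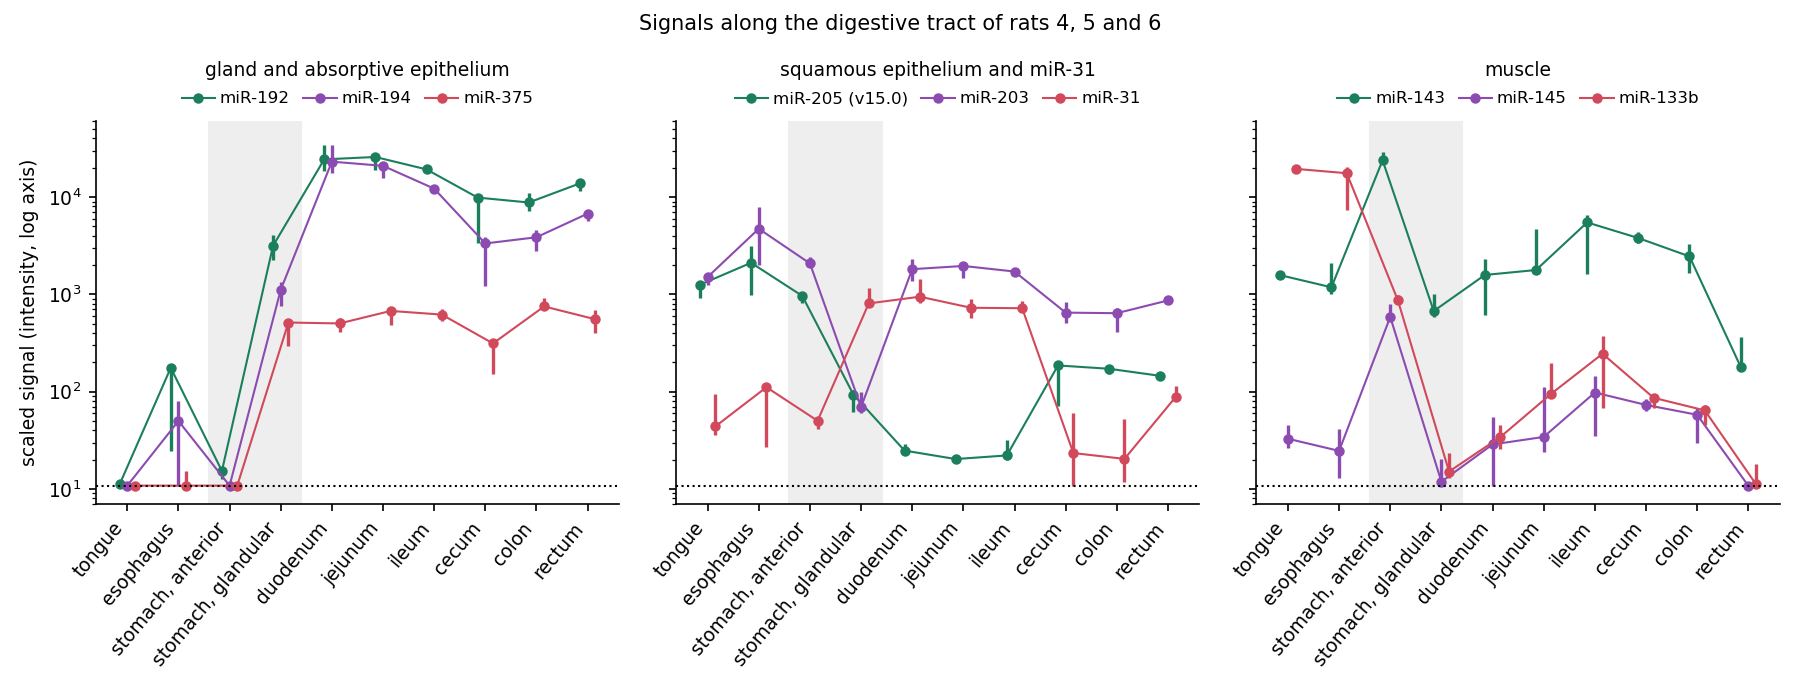
Scaled signals (y axis, log scale) along the digestive tract (x axis) for miRNAs of gland epithelium, squamous epithelium and muscle. Points are the middle and bars the lowest and highest of 3 rats, lines only join organs in anatomical order, the dotted line is the floor of 10.8 and gray marks the stomach. The mean of miR-203 over the rats drops to 76.2 in the glandular stomach between 2138 in the anterior stomach and 1841 in duodenum, and miR-143 peaks in the anterior stomach.

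A squamous and a columnar lining can also be compared outside the stomach, as esophagus minus duodenum of the same rats. That pair uses no stomach array. The atlas marks duodenum as scraped mucosa and does not mark esophagus so. This contrast therefore also sets tissue that could hold a muscle wall against mucosa, and lining and muscle cannot be told apart in it. Of the 141 miRNAs that differed between the stomach parts, 135 were detected on at least 1 array of esophagus or duodenum, and 121 of these had the same sign there. Among the 99 with a stomach difference over 1 log2 unit it was 93. Across the 135 miRNAs the differences correlated at r = 0.782, as a description across miRNAs. The medians of both comparisons over the 172 miRNAs were below 0, -0.66 and -0.84.

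Muscle and HOX miRNAs were split in this respect. miR-143 and miR-145, with stomach differences over 5 log2 units, differed by 0.06 and -0.12 between esophagus and duodenum, and miR-10a-5p and miR-365 by -0.03 and 0.09. Others kept the sign of the stomach, with differences of 8.67 for miR-133b and 2.65 for miR-10b, and miR-1, detected on no duodenum array, was at least 208-fold higher in esophagus. For miR-203 the difference was 1.23 beside 4.84 in the stomach, as duodenum had 1841 ± 472 (SD, n = 3) of it, against 76.2 ± 20.2 in the glandular stomach. miR-3584-5p was the only miRNA with a stomach difference over 2 toward the glandular side that had the other sign, at 0.36. The miRNAs of gland epithelium followed the stomach, with -8.08 for miR-192 and -9.42 for miR-194, as did miR-31 at -3.87. miR-375 was detected on no esophagus array, and its duodenal signal was at least 32.7-fold higher (measured means 5.96 and 492).

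**Figure D5:**
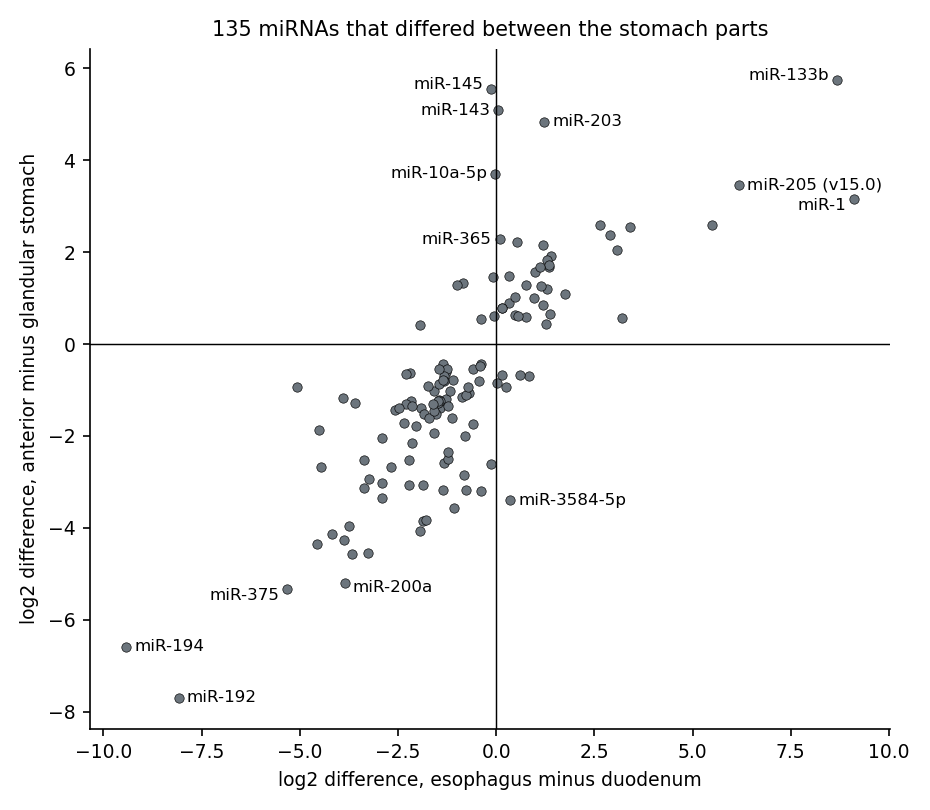
Differences of the 135 miRNAs that passed the test in the stomach and were detected in esophagus or duodenum: anterior minus glandular stomach (y axis, log2) against esophagus minus duodenum (x axis, log2), each the mean of rats 4, 5 and 6 with signals under the floor set to it. Most points lie in the lower left and upper right, and miR-143, miR-145, miR-10a-5p and miR-365 lie near 0 on the x axis.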

How the data were processed

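Total RNA (0.1 µg) of the stomach parts of 3 saline-perfused rats was hybridized to Agilent 1-color rat miRNA arrays. The deposited files hold processed signal intensity per spot (Feature Extraction 10.7.3, background-subtracted), and the authors also deposited a normalized intensity table scaled by the 75th percentile. Spots marked as outliers were left out, no spot was saturated, and spots were averaged per probe sequence and then per miRNA. Signals were divided by the array's 75th percentile over 37 miRNAs detected on all 180 arrays, brought to a common 2118, floored at 10.8 (the median over arrays of the lowest detected signal) and tested in log2 with limma 3.58.1 (R 4.3.3), with part and rat as terms. Each rat's arrays shared 1 slide and 1 scan day, which the pairing removes and which cannot be told apart from the rat. Arrays of a rat deviated together in rats 5 and 6 (correlations 0.336 and 0.361) and less in rat 4 (0.021), and the pairing follows the animals. normexp used median spot signals with an offset of 50, since no mean signal column was found. limma p-values and SEs rest on the spread between 3 animals, with 2 residual degrees of freedom for each miRNA. That spread was moderated toward the common spread of all tested miRNAs, which counted as 5.29 prior degrees of freedom. The number of arrays limits precision.

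A miRNA was named if it was a marker of the comparison (miR-192, miR-205, miR-375), among the 10 largest differences per direction detected on all 6 arrays, detected in 1 part only (up to 10 per direction), among the 5 brightest of a part, or a tested member of the marker and family lists. The members and lists were chosen with earlier results of these data known. Alternatives covered scaling, background, spot summary, floor, filter, model and each rat left out. Simulated data were used to test the fit.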

Additional observations from a re-analysis of the deposited data

How the results depend on the processing

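The paired limma test called 141 of 172 miRNAs, and the count stayed within 1.5 times of that (96 to 159) under all alternatives but 2. It fell to 89 (25 higher in anterior, 64 in glandular) with a floor 4 times as high, and to 17 of 717 with no filter on dim miRNAs, where 489 miRNAs sat at the floor throughout and limma gave 138 an unadjusted p under 0.05. Without replicate 4, 5 or 6 the counts ranged from 127 to 131, and 85 of the 97 miRNAs called under every scaling kept call and direction with each rat left out, all 51 on the glandular side and 34 of 46 on the anterior side. With no replicate block 145 were called, and the block changed no direction. normexp called 159 (26 and 133).

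Of 110 named miRNAs, 33 took the other sign under some alternative where at least 1 of the 2 values was called. Of these, 23 were called in both directions and 10 in 1 direction only. The values were as follows, in log2 units, and the cause was not tested. With the 75th percentile over all miRNAs, let-7a had 0.75, let-7d 0.64, miR-128 0.081, miR-140 0.18, miR-146a 0.73, miR-16 0.085, miR-181b 0.60, miR-21 0.53, miR-221 0.78, miR-29a 0.25 and miR-98 0.42. Over miRNAs detected on all 6 arrays, let-7a had 0.77, let-7b 0.43, let-7d 0.67, let-7f 0.44, miR-128 0.11, miR-140 0.21, miR-146a 0.76, miR-16 0.11, miR-181b 0.60, miR-21 0.55, miR-221 0.80, miR-29a 0.27 and miR-98 0.45. In the authors' table, let-7a had 0.91, let-7b 0.57, let-7d 0.81, let-7f 0.58, miR-128 0.25, miR-140 0.35, miR-142-3p 0.0044, miR-146a 0.90, miR-152 0.59, miR-16 0.25, miR-181b 0.75, miR-181c 0.53, miR-21 0.69, miR-221 0.94, miR-29a 0.41, miR-30a 0.013, miR-93 0.033 and miR-98 0.59. After quantile normalization, miR-128 had 0.21, miR-140 0.13, miR-146a 0.51, miR-181b 0.73, miR-181c 0.58 and miR-221 0.59. Under normexp, miR-126* had -1.01, miR-127 -0.52, miR-150 -0.70, miR-181a -0.44, miR-218 -0.61, miR-222 -0.98, miR-223 -0.53, miR-329 -1.02, miR-338 -0.45, miR-3588 -0.39, miR-434 -0.60, miR-455* -0.88, miR-490 -0.76, miR-490* -0.81 and miR-99b -0.077. The scaling by the median over miRNAs detected on all 6 arrays was chosen after seeing the data. Signal over background limits the dim miRNAs, for which only bounds can be given.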
